A study of Mus musculus with 4 samples.

Results

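Heat-shock high cells were the tumor T cells richest in transcripts of 4 stress-inducible chaperone genes, and they made up 6509 of 21342 T cells (30.5%) in 4 libraries of sarcoma-infiltrating unconventional αβ T cells. They were chosen by those transcripts. A barcode counted as a cell with at least 200 genes, at most 20000 UMIs (unique molecular identifiers, which count captured mRNA molecules), at most 10% mitochondrial UMIs and at least 1 UMI of Cd3e, a chain of the T cell receptor complex, and 21342 of 32525 barcodes passed. A cell was heat-shock high when its UMIs of Hspa1a, Hspa1b, Hsph1 and Dnajb1 summed to 5 or more, and it was compared with the 10548 cells of its own library whose sum was 0 or 1, called heat-shock low below. The 4285 cells with sums in between entered neither class. The class is a range cut from a count, not a cell type, and many cells lay at the cut: 988 cells had a sum of 4, 812 a sum of 5 and 675 a sum of 6.

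The cells came from sarcomas that the carcinogen 3-methylcholanthrene induced in Csf3r+/+ mice and in Csf3r-/- mice, which lack the receptor for granulocyte colony-stimulating factor in every tissue and are short of neutrophils; 2 libraries were made per genotype, and the study describes them as biological replicates from 2 mice per group. UTCαβ, T cells with an αβ receptor but neither CD4 nor CD8, were sorted after the tumors had been minced and digested with enzymes and after CD45+ leukocytes had been enriched and CD11b+ cells, which include macrophages and neutrophils, and CD4+ and CD8+ T cells removed, and their transcript 3′ ends were counted in droplets. Ages were not given in the sources used here, and no sample was taken without digestion. Libraries are called Csf3r+/+ 1, Csf3r+/+ 2, Csf3r-/- 1 and Csf3r-/- 2 after the number that follows each barcode, which the labels do not tie to an animal. In that order they held 2843, 6458, 5215 and 6826 cells with median depths of 3055, 3026, 2239 and 1983 UMIs per cell, out of 12483656, 38559291, 18136748 and 23234493 UMIs over all barcodes. Libraries shared 20 to 56 barcode sequences among their cells in each pair. Csf3r itself gave 1, 3, 2 and 1 UMIs in the cells of the 4 libraries, so these T cells hardly carry the transcript and it does not check the genotypes.

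The heat-shock response is the transcriptional answer of a cell to misfolded protein: chaperones that normally hold the transcription factor HSF1 inactive are drawn away by unfolded proteins, and freed HSF1 binds repeated nGAAn units in front of its target genes. Hspa1a and Hspa1b encode the inducible HSP70, Dnajb1 the HSP40 cochaperone that hands it clients, and Hsph1 the HSP110 nucleotide exchange factor that resets it. Warm enzymatic digestion of tissue is known to induce these genes together with the immediate-early genes, and heat and proteotoxic stress inside a tissue are known inducers too.

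The 4 genes lay on 3 chromosomes of GRCm38: Hspa1a at chr17:34969190-34972156 and Hspa1b at chr17:34956436-34959238, neighbours on the minus strand, Hsph1 at chr5:149614287-149636376 on the minus strand and Dnajb1 at chr8:83608193-83612653 on the plus strand. Their last 300 transcript bases, from which 3′ reads come, shared no 31-base word with another gene, and Hspa1a and Hspa1b could therefore be counted apart. The 250 bases before the starts of both HSP70 genes and of 3 genes outside the rule that were higher in heat-shock high cells are shown because each holds a pair of HSF1 units. They are RefSeq sequences of GRCm38.p6, each printed along its own gene's strand, at chr17:34972157-34972406 (minus) for Hspa1a, chr17:34959239-34959488 (minus) for Hspa1b, chr5:135887669-135887918 (plus) for Hspb1, chr3:152193846-152194095 (minus) for Dnajb4 and chr4:95052223-95052472 (minus) for Jun. Capitals mark GAANNTTC or TTCNNGAA, a head-to-head or tail-to-tail pair of units; each of these words is its own reverse complement, so both strands were searched.
Hspa1a: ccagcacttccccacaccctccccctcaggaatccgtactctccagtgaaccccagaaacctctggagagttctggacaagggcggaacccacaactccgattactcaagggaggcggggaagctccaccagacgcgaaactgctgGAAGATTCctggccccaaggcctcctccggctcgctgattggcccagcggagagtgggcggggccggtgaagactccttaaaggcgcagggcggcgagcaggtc
Hspa1b: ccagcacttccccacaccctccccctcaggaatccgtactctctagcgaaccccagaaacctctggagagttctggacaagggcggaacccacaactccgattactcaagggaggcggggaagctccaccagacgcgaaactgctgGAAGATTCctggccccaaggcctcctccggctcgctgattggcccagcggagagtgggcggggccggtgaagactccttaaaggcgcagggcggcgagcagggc
Hspb1: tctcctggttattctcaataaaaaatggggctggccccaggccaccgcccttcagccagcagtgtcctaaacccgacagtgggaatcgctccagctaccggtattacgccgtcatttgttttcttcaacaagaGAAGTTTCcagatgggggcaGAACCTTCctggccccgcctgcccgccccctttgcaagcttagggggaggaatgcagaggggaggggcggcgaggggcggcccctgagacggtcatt
Dnajb4: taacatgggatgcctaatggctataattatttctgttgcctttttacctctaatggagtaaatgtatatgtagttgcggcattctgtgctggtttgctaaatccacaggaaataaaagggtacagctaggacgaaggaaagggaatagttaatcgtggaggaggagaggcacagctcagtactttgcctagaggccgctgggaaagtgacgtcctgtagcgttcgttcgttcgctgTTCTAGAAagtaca
Jun: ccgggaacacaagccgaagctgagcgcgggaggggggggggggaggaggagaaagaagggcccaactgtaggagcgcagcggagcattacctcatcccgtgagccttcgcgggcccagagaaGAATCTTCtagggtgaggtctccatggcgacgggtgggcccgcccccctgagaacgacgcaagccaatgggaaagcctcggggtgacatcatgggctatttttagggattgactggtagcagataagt
The windows of Hspa1a and Hspa1b were the same at 247 of 250 bases, with the marked word beginning 104 bases before the start in both. It began 117 and 97 bases before the start of Hspb1, 14 before a start of Dnajb4 and 128 before that of Jun. The start used for Dnajb4 is an alternative one inside the gene, which spans chr3:152178511-152210302, and the window at its outermost start held 0 such words; a gene with several windows was counted as holding the word when any of them did. Of the rule's genes 3 of 4 held such a word, Dnajb1 being the one without, against 14.5% of 27025 genes with a window. A match describes the letters and is not evidence of binding.

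Within heat-shock high cells the rule was met mainly through Hspa1a, which supplied 64.6% of the summed UMIs, and Dnajb1, which supplied 29.7%; Hspa1b and Hsph1 supplied 2.91% and 2.79%. Hspa1a alone reached 5 UMIs in 70.3% of heat-shock high cells and Dnajb1 alone in 34.7%. Of these cells 12.2% had UMIs of 1 of the 4 genes, 48.9% of 2, 30.96% of 3 and 8.004% of all 4; Hspa1b was detected in 29.8% of them and Hsph1 in 26.1%. In CPM, the UMIs of a gene per 1000000 UMIs of a class and library, Hspa1a stood at 2514, 2377, 1577 and 3085 in the heat-shock high cells and at 44.3, 40.4, 45.3 and 55.8 in the low cells, and Dnajb1 at 888, 1368, 436 and 818 against 55.3, 115, 56.4 and 65.9. These values were what chose the cells and are a description. No cell type here should lack the 4 genes, so the share of their UMIs that came from free RNA was not tested.

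The genes of the rule also marked one another. When the cells were chosen by the other 3 genes alone, with the same limits of 5 and 1, the gene left out was higher in the heat-shock high cells of all 4 libraries. Left-out Hspa1a stood at 2568, 2520, 1209 and 4356 CPM in the high cells and at 828, 701, 354 and 350 CPM in the low cells, a log2 fold change of 2.25 ± 0.25 (SE, n = 4 libraries; edgeR quasi-likelihood test, Benjamini-Hochberg adjusted p = 0.000243). Left-out Dnajb1 rose by a log2 fold change of 1.74 ± 0.12 (adjusted p = 1.29e-05 in edgeR), Hspa1b by 1.94 ± 0.18 (adjusted p = 0.000436) and Hsph1 by 1.49 ± 0.19 (adjusted p = 0.00213). The 4 transcripts thus rose together, and each test also passed with any library left out, with DESeq2 and among cells matched in depth.

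Heat-shock high cells were common in the Csf3r+/+ sarcomas and less so in the Csf3r-/- sarcomas. They were 46.4% of cells in Csf3r+/+ 1 (exact 95% binomial interval 44.5 to 48.2) and 54.6% in Csf3r+/+ 2 (53.3 to 55.8), but 13.7% in Csf3r-/- 1 (12.8 to 14.7) and 14.0% in Csf3r-/- 2 (13.1 to 14.8); these intervals cover counting error only. The libraries of the genotypes did not overlap, and the means of 50.5% ± 5.77 and 13.8% ± 0.191 (SD, n = 2 each) differed by -36.6 percentage points. A two-sided exact permutation test gave p = 0.333, which is the smallest p that 2 libraries against 2 allow. The high cells of Csf3r-/- had median sums of 7 and 8 UMIs against 11 and 12, but relative to depth they were not all lower, at 21.7 and 42.6 UMIs of the 4 genes per 10000 UMIs against 35.2 and 39.5. The highest sums of single cells were 79, 149, 52 and 101 UMIs.

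Depth and the kind of T cell moved with this share. Csf3r-/- cells were shallower, and after thinning every cell to 1500 UMIs the shares were 25.3%, 31.4%, 5.05% and 8.31%, with 63, 139, 541 and 975 cells too shallow to thin; the difference between genotypes was then -21.7 percentage points. Cells were also sorted by whether more genes of a type 3 list (18 genes of the IL-17 programme, such as Il17a) or of a type 1 list (28 genes of the interferon and natural killer programme, such as Tbx21) were detected. Among type 3-leaning cells the shares were 27.7%, 40.0%, 10.6% and 10.7%, and among type 1-leaning cells 64.8%, 55.9%, 23.5% and 27.7%. Both Csf3r+/+ libraries therefore lay above both Csf3r-/- libraries in either kind of cell, by 23.2 and 34.7 percentage points on average, and in thinned cells of each kind too. Each library was taken as 1 of the 2 mice that the study describes per genotype, though no label ties it to an animal. Differences between mice or in their handling therefore cannot be told apart from the genotype beyond these 2 against 2 libraries.

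**Figure D1:**
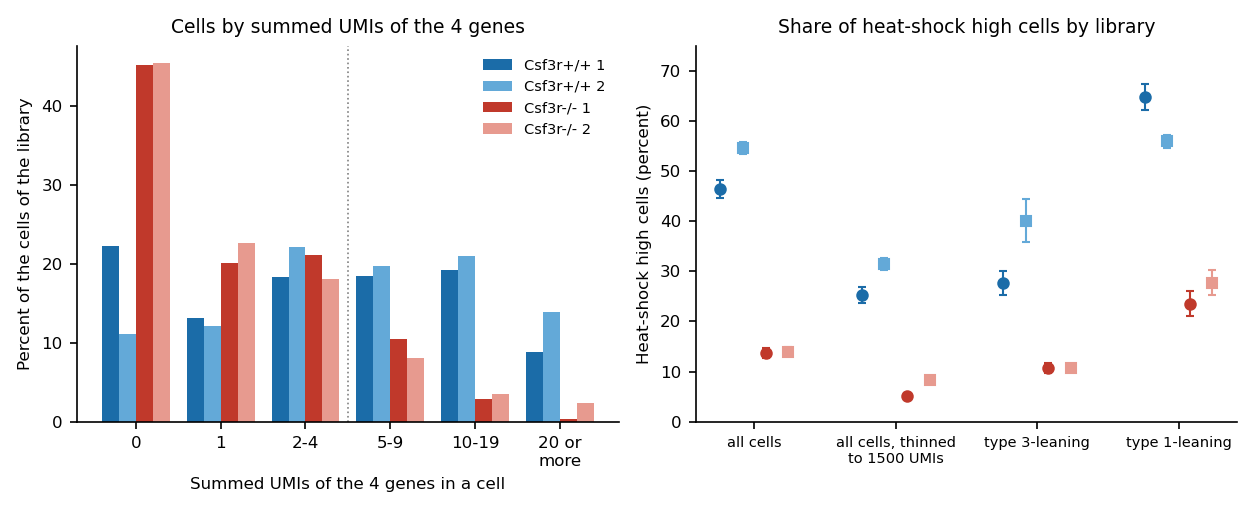
Left, distribution of the summed UMIs of Hspa1a, Hspa1b, Hsph1 and Dnajb1 by library; right, percent of cells that were heat-shock high, with exact 95% binomial intervals, for all cells, for cells thinned to 1500 UMIs and for type 3-leaning and type 1-leaning cells. In all 4 settings both Csf3r+/+ libraries (46.4% and 54.6% over all cells) lie above both Csf3r-/- libraries (13.7% and 14.0%).

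Heat-shock high cells carried T cell transcripts, as the filter on Cd3e required of every cell, and were deeper than the low cells. The summed level of 6 listed T cell genes was 5348, 3946, 5542 and 4856 CPM in the high cells and 6087, 3988, 6322 and 6116 CPM in the low cells, with Cd3g, a chain of the receptor complex, the most abundant in each. The adaptor Lat was lower in the high cells, by a log2 fold change of -0.40 (edgeR, adjusted p = 0.0255). Cd3e was at -0.29, but the filter used it to choose the cells, so its value is a description. The other 4 did not pass. With low cells matched in depth 0 of the 6 passed (median 0.014), as without Csf3r-/- 1 or without Csf3r-/- 2. Without Csf3r+/+ 1 and without Csf3r+/+ 2, 1 and 3 of them were lower. Macrophage genes summed to 4697 CPM in the high cells of Csf3r-/- 2, close to the T cell genes there. Of 3 tested B cell genes Cd79a and Ms4a1 were higher, at most at 31.2 and 21.03 CPM. The B cell genes that passed were 0 of 3 with DESeq2, 0 of 4 with low cells matched in depth and 1 of 3 with depth and kind matched. Without Csf3r-/- 1 they were 0 of 2 and without Csf3r-/- 2 they were 0 of 3. Neutrophil markers gave between 1 and 9 UMIs and fibroblast markers between 0 and 36 UMIs in any class of a library, their parts in the results not being tested. Median UMIs outside the 4 genes exceeded those of the low cells by 675, 802, 1102.5 and 639, on average by 805 (two-sided exact permutation test over 4 pairs, p = 0.125, the smallest possible), and a deeper cell reaches 5 UMIs more easily. The share of mitochondrial UMIs, which climbs in damaged cells, differed by -0.077 percentage points (exact permutation p = 0.25), with signs that varied between libraries. The share of ribosomal protein UMIs was higher by 2.08, 2.93 and 2.15 percentage points in the high cells of Csf3r+/+ 1, Csf3r-/- 1 and Csf3r-/- 2 and lower by -0.38 in Csf3r+/+ 2, on average 1.69 (exact permutation p = 0.25), and its part in the other results was not tested.

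Outside the rule, 327 of 10453 genes were higher (3.13% of those tested) and 252 lower (2.41%) in heat-shock high cells, by edgeR on UMIs summed per class and library with the library as a block. The low class was then matched to the high class in depth and kind of T cell within each library, and 108 of 9205 genes were higher (1.17%) and 127 lower (1.38%), of which 84 and 46 were also called in the unmatched comparison. Library Csf3r-/- 2 carried many calls: without it 52 genes were higher and 44 lower, all among those above, and without Csf3r-/- 1 the counts were 144 and 104. Without Csf3r+/+ 2 they were 615 and 360. The lists below were chosen with earlier results of these data known and are described by counts.

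Some chaperones outside the rule rose with it, 2 of them mitochondrial, but most of the family did not pass. Of 30 listed genes 27 were tested, 8 were higher and 0 lower, with a median log2 fold change of 0.14 against 0.0056 over all genes tested; in matched cells 9 were higher, and without Csf3r-/- 2 it was 6. The genes that moved most were small heat-shock and HSP70-partner genes and the inducible HSP90.

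Hspb1, the small heat-shock protein HSP27, stood at 29.6, 49.8, 7.89 and 11.1 CPM in the high cells and at 7.66, 3.16, 1.24 and 0.301 CPM in the low cells. Its classes did not overlap within any library although its level was low, and 31.1% of the 31-base words of its 3′ end also occur in another gene, so some reads may be uncertain. The log2 fold change was 3.22 ± 0.33 (SE; edgeR, adjusted p = 0.000656), and 3.37 in matched cells. Hsp90aa1, the stress-inducible cytosolic HSP90, stood at 1042, 1359, 766 and 2027 CPM in the high cells and at 440, 607, 389 and 520 CPM in the low cells. Every high class lay above every low class, with a log2 fold change of 1.37 ± 0.13 (adjusted p = 0.000633 in edgeR) and 1.31 in matched cells. Bag3, a cochaperone that links HSP70 to small heat-shock proteins and autophagy, rose by 1.51 ± 0.24 (adjusted p = 0.00478; 1.19 and not quite passing without Csf3r-/- 2) from low levels, and Dnajb4, another HSP40, by 1.24 ± 0.14 (adjusted p = 0.000811).

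Changes of the abundant constitutive chaperones were smaller. Hsp90ab1, the constitutive HSP90, rose by a log2 fold change of 0.73 ± 0.10 (edgeR, adjusted p = 0.00197). Hspd1 and Hspe1, the mitochondrial chaperonin pair transcribed from a common promoter region, rose by 0.60 ± 0.08 and 0.59 ± 0.08 (adjusted p = 0.00199 and 0.00208). Hspa8, the constitutive HSC70, stood at 2933, 3664, 2366 and 3656 CPM against 2118, 3138, 1904 and 1995 CPM, a rise of 0.50 ± 0.10 (adjusted p = 0.0150), with 64.1% of its 3′ words shared with other annotated genes. Dnaja1, an HSP40 of HSC70, had a log2 fold change of 0.42 with adjusted p = 0.0519 over all cells and of 0.50 with adjusted p = 0.000936 in matched cells, both from edgeR. Hspa8 no longer passed without Csf3r-/- 1 (0.55) or without Csf3r-/- 2 (0.36).

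**Figure D2:**
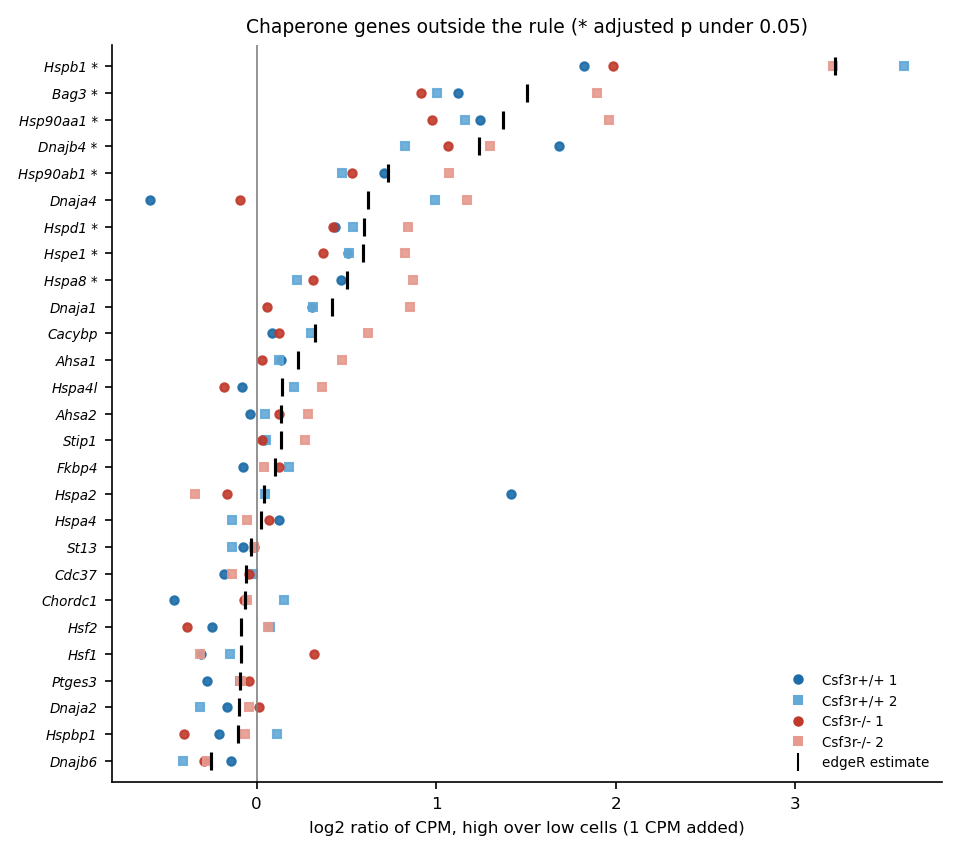
Log2 ratio of CPM in heat-shock high over low cells of the same library (1 CPM added to each) for the tested chaperone genes outside the rule, with 1 point per library and a black bar for the edgeR estimate. Hspb1 (3.22), Bag3 (1.51), Hsp90aa1 (1.37) and Dnajb4 (1.24) lie to the right of 0 in all 4 libraries, while most other members lie near 0.

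The motif shown above was found in front of 4 of the 5 higher chaperones that had a window and of 9 of the 22 tested chaperones with one. Over all tested genes 12.1% of 7946 windows held it, over the higher genes 57 of 233 (24.5%) and over the lower genes 20 of 181 (11.05%). The immediate-early genes, which are induced by other factors, held it in 4 of 32 windows. Another unit in a row, TTCNNGAANNTTC or GAANNTTCNNGAA, which contains the word for 2 units, was found in 0.514% of all windows and in 3 of 22 tested chaperones. Of the chaperones with this longer word, Dnajb6 was not higher (log2 fold change -0.25). The windows of Hspd1 and Hspe1 overlap on opposite strands, so the same site can be counted for both genes. These counts are over genes already known to differ and carry no test.

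Lists of machinery next to the chaperones had few calls. Ubb, which supplies ubiquitin in stress, rose by a log2 fold change of 0.48 ± 0.07 (edgeR, adjusted p = 0.00326), but it shares 90.4% of its 3′ words with another gene and is uncertain, and it no longer passed without Csf3r-/- 2 (0.47). None of 31 proteasome subunits and none of 7 subunits of the TRiC chaperonin passed the test in either direction, with medians of 0.036 and 0.093; 1 and 2 of them had an unadjusted p under 0.05 in edgeR, and DESeq2 called 0 of both lists. Over all genes tested 3.13% were higher and 2.41% lower, so counts of 0 in these short lists say little about their members. Of 23 genes of the unfolded protein response of the endoplasmic reticulum 3 were higher and 0 lower, with a median of -0.074. Those 3, Ppp1r15a (0.85), Ddit4 (0.70) and Atf4 (0.63), belong to the integrated stress response, and 0 of the 23 passed without Csf3r-/- 2 and 1 without Csf3r-/- 1.

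Immediate-early genes are switched on within minutes by any strong stimulus, and about as many of them rose as did not pass the test. Of 39 tested 20 were higher and 0 lower, with a median log2 fold change of 0.52; in matched cells 24 were higher and 1 lower, and without Csf3r-/- 2 it was 11 and 0. Klf2, a transcription factor of resting and recirculating T cells, had the smallest p of all genes tested. Its level was 97.1, 134, 63.8 and 107 CPM in the high cells and 21.0, 28.9, 18.8 and 19.7 CPM in the low cells, with no overlap between classes. The log2 fold change was 2.20 ± 0.11 (SE; edgeR, adjusted p = 7.20e-06), 2.12 in matched cells and between 2.08 and 2.32 with any library left out.

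The AP-1 subunits did not move alike: Jun, Fos, Fosb and Jund rose, while Junb, at 0.20 (edgeR, adjusted p = 0.540) and below 0 in both Csf3r-/- libraries, and Fosl2, at -0.34 (adjusted p = 0.0519), did not pass. Jun stood at 1907, 1239, 668 and 1010 CPM in the high cells and at 776, 316, 323 and 385 CPM in the low cells, a log2 fold change of 1.46 ± 0.11 (edgeR, adjusted p = 0.000229). Each library's high class exceeded its own low class, though the low cells of Csf3r+/+ 1 lay above the high cells of Csf3r-/- 1. Fos stood at 1642, 1073, 953 and 1432 CPM against 446, 500, 464 and 552 CPM, with 1.38 ± 0.13 (adjusted p = 0.000545) and no overlap between classes. Egr1, a growth and antigen signal factor, rose by 1.56 ± 0.19 (adjusted p = 0.00132) and Ier3, a survival gene, by 2.13 ± 0.32 (adjusted p = 0.00364) from levels below 40 CPM. The size for Ier3 rests on Csf3r-/- 2, where the log2 ratio was 2.79 against 0.96, 1.14 and 0.86 in the others, and without that library it was 1.27 (adjusted p = 0.0529 in edgeR). Feedback genes rose as well, among them the phosphatase Dusp1 (0.90) and the mRNA-destabilising Zfp36 (0.98), as did Fosb (1.02), Klf6 (1.07), Atf3 (0.97), Btg2 (0.72) and Myc (1.18). Nr4a1, a reporter of T cell receptor signalling, did not pass: its levels were 28.6, 250, 155 and 449 CPM against 4.33, 216, 176 and 357 CPM, with a log2 fold change of 0.36 ± 0.23 (adjusted p = 0.434). Cd69, an early surface marker of activation, rose by 0.50 ± 0.12 (adjusted p = 0.0390). Without Csf3r-/- 2, Zfp36 (0.79), Atf3 (0.62), Btg2 (0.77) and Cd69 (0.55) no longer passed, nor did Cd69 without Csf3r+/+ 1 (0.37) or Csf3r+/+ 2 (0.42).

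**Figure D3:**
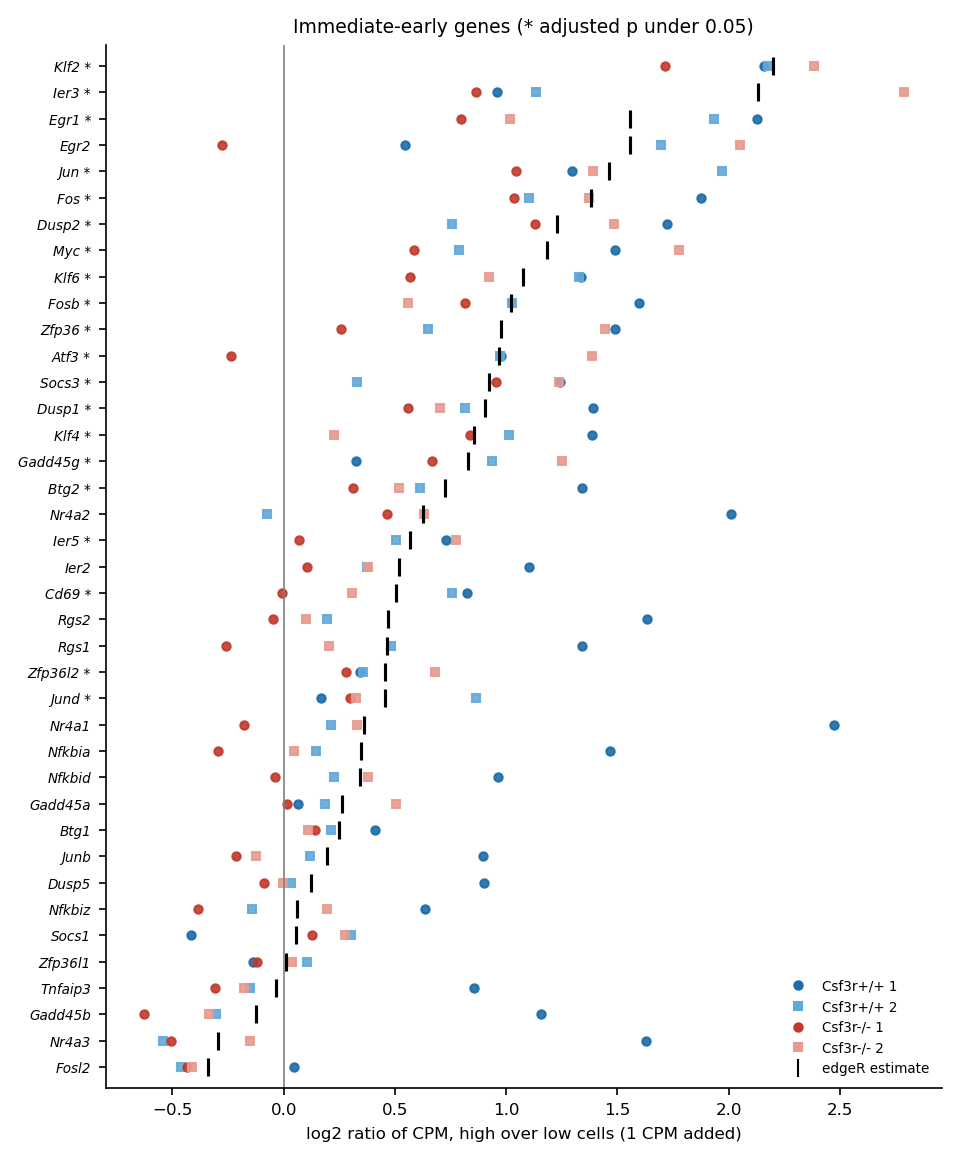
Log2 ratio of CPM in heat-shock high over low cells of the same library (1 CPM added to each) for the tested immediate-early genes, with 1 point per library and a black bar for the edgeR estimate. Klf2 (2.20), Jun (1.46) and Fos (1.38) lie to the right of 0 in every library, whereas Nr4a1 (0.36) is far to the right in Csf3r+/+ 1 alone.

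Most genes on a list of 28 that tissue dissociation is known to induce were higher. Of its 27 tested genes 21 were higher and 0 lower, with a median log2 fold change of 0.90; in matched cells it was 22 of 25, and without Csf3r-/- 2 it was 13 of 25. The list shares 16 genes with the immediate-early list and 6 with the chaperones, so these counts are not separate. Rhob, a stress-induced small GTPase that belongs to this list alone, stood at 23.1, 59.3, 7.13 and 41.5 CPM against 8.99, 11.98, 1.99 and 5.62 CPM, a log2 fold change of 2.29 ± 0.20 (edgeR, adjusted p = 0.000359). All 4 libraries were digested and there was no undigested tissue, so the part of dissociation in the class was not tested, and induction in the tumor and during digestion cannot be told apart in these data.

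The link was graded and did not begin at the cut. In cells grouped by sums of 0, 1, 2 to 4, 5 to 9, 10 to 19 and 20 or more, the levels of Hsp90aa1, Jun, Fos, Klf2 and Klf6 were higher in each group than in the one before in every library. Hsp90aa1 went from 395 to 1327 CPM in Csf3r+/+ 1 and from 540 to 2104 CPM in Csf3r+/+ 2. In Csf3r-/- 2 it went from 482 to 4448 CPM, and in Csf3r-/- 1 from 362 to 857 CPM at sums of 10 to 19, the group of 20 or more holding 17 cells there. Klf2 went from 15.3 to 119, from 21.5 to 205, from 16.1 to 100.3 (at 10 to 19) and from 17.9 to 246 CPM. Hspa8 went from 2047 to 3283, from 2994 to 4356, from 1833 to 2361 (at 10 to 19) and from 1914 to 5940 CPM. Il17a, the effector cytokine of type 3 cells, went the other way where it was abundant, from 1507 to 890 CPM in Csf3r-/- 2. Deeper cells fill the higher groups, so these levels are a description.

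**Figure D4:**
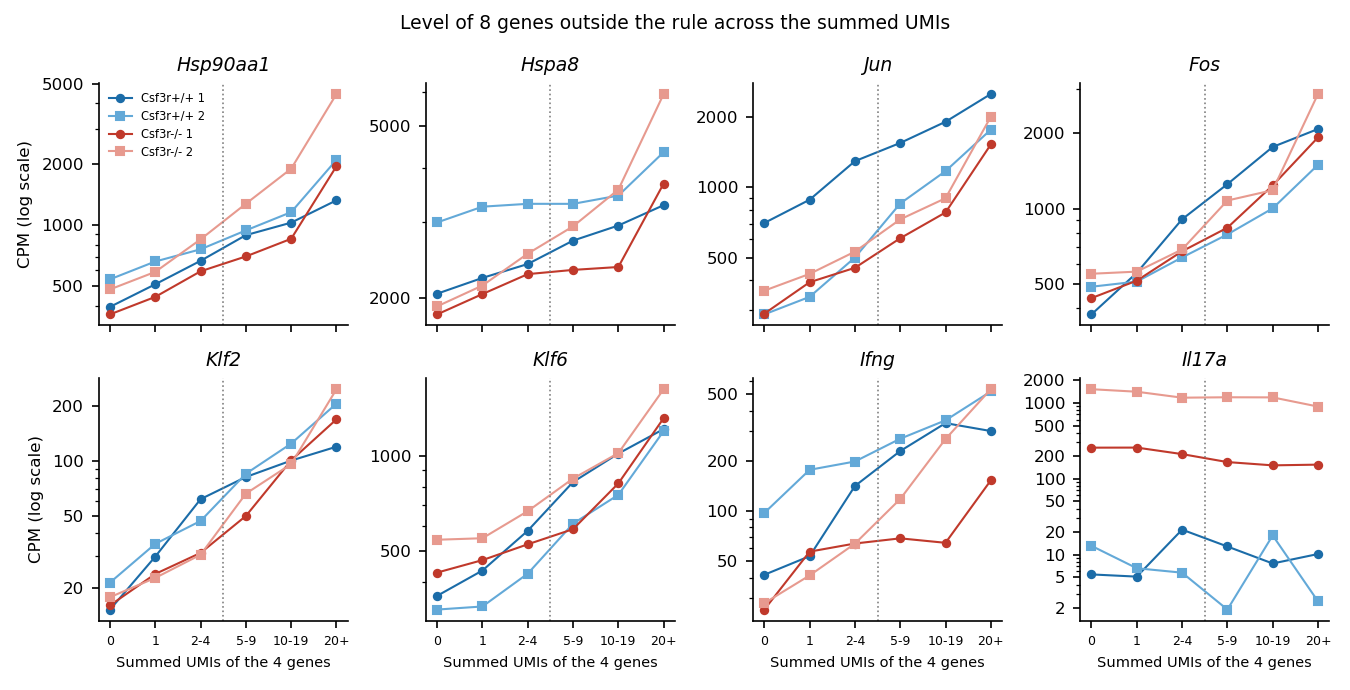
CPM (log scale) of 8 genes outside the rule in cells grouped by the summed UMIs of the 4 genes, with 1 line per library and a dotted line at the cut of 5. Hsp90aa1, Jun, Fos, Klf2 and Klf6 climb from the lowest to the highest group in all 4 libraries, and Il17a does not; the last point of Csf3r-/- 1 rests on 17 cells.

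Heat-shock high cells leaned to type 1 more often than low cells in all 4 libraries. Type 1-leaning cells were 70.1% of the high and 25.9% of the low cells in Csf3r+/+ 1, 93.2% and 86.0% in Csf3r+/+ 2, 37.4% and 15.2% in Csf3r-/- 1, and 37.1% and 12.2% in Csf3r-/- 2. The median cell carried 108, 96.5, 14.4 and 23.5 type 1 UMIs per 10000 in the high class and 4.79, 86.5, 5.59 and 11.8 in the low class. For type 3 genes the medians were 9.15, 5.87, 57.9 and 70.5 in the high class and 78.0, 6.72, 89.4 and 106 in the low class. Csf3r+/+ 2, which is nearly all type 1-leaning, therefore had the smallest contrast, and in both Csf3r-/- libraries most heat-shock high cells still leaned to type 3.

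Type 1 genes were higher and type 3 genes lower in the high class. Of 28 type 1 genes 16 were higher and 0 lower (median log2 fold change 0.72), and of 18 type 3 genes 0 were higher and 13 lower (median -0.75); without Csf3r-/- 2 it was 2 type 1 genes higher and 5 type 3 genes lower. Tbx21, the master factor of type 1 cells, rose by 0.91 (edgeR, adjusted p = 0.0196), the chemokine receptor Cxcr3 by 0.83 (adjusted p = 0.000811) and the chemokine Xcl1 by 1.09 (adjusted p = 0.00310). Rora, a nuclear receptor of the type 3 programme, stood at 58.4, 75.1, 228 and 293 CPM against 162, 153, 332 and 504 CPM, a log2 fold change of -0.90 (edgeR, adjusted p = 0.00153), and the costimulator Icos was at -0.76 (adjusted p = 0.000680). In cells matched in depth alone, 7 of 28 type 1 genes were higher and 5 of 18 type 3 genes lower. The lean itself counts detected genes, and the part of depth in it was not tested. In cells matched in depth and kind, where the matching itself takes up these lists, 1 type 1 gene was higher and 1 lower, and 0 type 3 genes were higher and 3 lower. Within type 3-leaning cells alone, however, 10 of 20 type 1 genes were still higher (median 1.05) and 3 of 18 type 3 genes lower. Within type 1-leaning cells 1 of 28 type 1 genes was higher and 2 lower. Of 16 type 3 genes tested in type 1-leaning cells 1 was higher and 2 lower, with a median of 0.34. Without Csf3r-/- 2 the calls of Tbx21 (0.66, adjusted p = 0.0952) and Xcl1 (1.02, adjusted p = 0.0626) were lost, and that of Tbx21 also without Csf3r-/- 1 (0.87, adjusted p = 0.0988), all in edgeR.

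Ifng was the type 1 gene that stayed higher after matching. The cytokine stood at 289, 373, 69.8 and 237 CPM in heat-shock high cells and at 46.3, 141, 36.3 and 32.8 CPM in low cells. Each library's high class was above its low class, and the low cells of Csf3r+/+ 2 were above the high cells of Csf3r-/- 1. The log2 fold change was 1.99 ± 0.27 (edgeR, adjusted p = 0.00200) and 1.65 in matched cells. Among 19 tested cytokines and chemokines 6 were higher and 2 lower over all cells. The chemokines Ccl3 and Ccl4 rose by 1.54 and 1.44 (adjusted p = 0.000778 and 0.000359) but had 0.76 and 0.46 without passing in matched cells, whereas Tnf rose by 0.81 over all cells (adjusted p = 0.00590) and by 0.997 in matched cells. Areg, a tissue-repair growth factor, was lower in both comparisons, with -0.58 and -0.72. Areg passed over all cells neither without Csf3r+/+ 2 (-0.53) nor without Csf3r-/- 1 (-0.56) or Csf3r-/- 2 (-0.59), and Tnf did not without Csf3r-/- 2 (0.85). Il17a had -0.33 (adjusted p = 0.253).

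**Figure D5:**
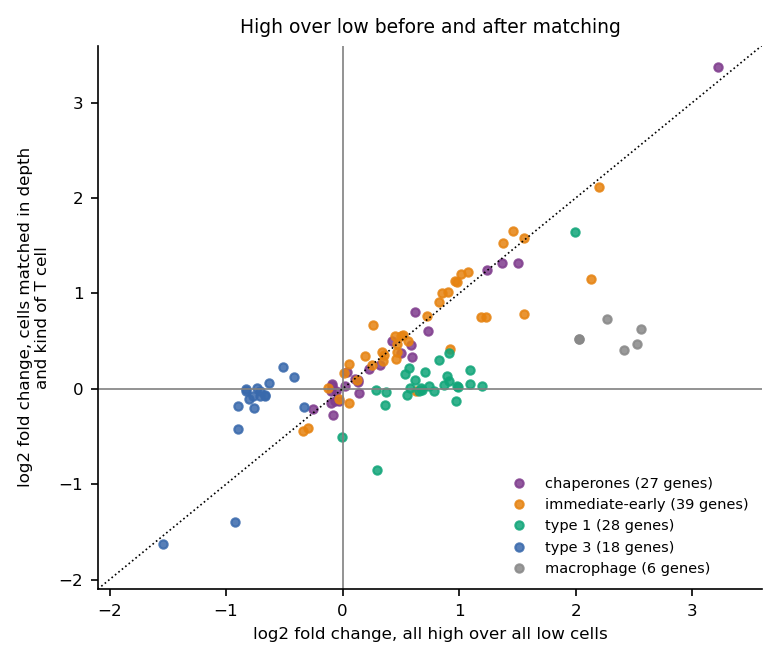
Each point is a gene of 5 lists, with its edgeR log2 fold change, high over low, over all cells on the x axis and in cells matched in depth and kind of T cell on the y axis; the dotted line marks equal values. Chaperones and immediate-early genes lie along that line, with Hspb1 at 3.22 and 3.37, while type 1 and type 3 genes have medians of 0.029 and -0.078 on the y axis and the 6 macrophage genes tested there 0.52, none of them past the threshold.

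Other genes outside the lists of stress set the classes apart. Among the 12 largest rises were Id3, an inhibitor of E proteins that is induced by receptor signals, at 141, 166, 40.6 and 56.3 CPM against 30.97, 52.4, 15.2 and 5.62 CPM (log2 fold change 2.08 ± 0.22; edgeR, adjusted p = 0.000695). Among the 12 largest falls Ramp3, a partner of calcitonin-family receptors, stood at 41.5, 77.6, 85.2 and 210 CPM against 86.9, 216, 169 and 472 CPM (-1.16 ± 0.09, adjusted p = 0.000229), lower in all 4 libraries. The other falls were Plekhg1, Pram1, Ppp1r14c, Ifngr2 (a chain of the interferon-γ receptor), Bcl2a1a, Actn2, Ccr1, Tnfsf11 (RANKL), Rora, Pxdc1 and Ltb4r1, between -1.10 and -0.90. Their direction was not the same in every kind of cell: among type 1-leaning cells alone 7 of them, Plekhg1, Ppp1r14c, Ifngr2, Actn2, Ccr1, Pxdc1 and Ltb4r1, were above 0, from 0.22 to 0.40. Pram1 and Bcl2a1a share 99.6% and 77.0% of their 3′ words with other genes and are uncertain. Bcl2a1a shares its words with Bcl2a1d, so the level of Bcl2a1d is uncertain too. Pdcd1, the checkpoint receptor PD-1, was lower by -0.80 ± 0.14 over all cells (adjusted p = 0.00657) and by -0.97 in matched cells, the survival gene Bcl2a1d by -0.85 and -0.59, and the costimulator Cd28 was higher by 0.66 and 0.45. Without Csf3r-/- 2, Plekhg1 (-1.13), Ppp1r14c (-1.25), Ccr1 (-1.19) and Pdcd1 (-0.85) no longer passed over all cells, nor did Ccr1 without Csf3r-/- 1 (-0.94).

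Transcripts of macrophages moved with the class. All 8 listed macrophage genes were higher in heat-shock high cells (median log2 fold change 2.47), as were the 3 genes of MHC class II. Without Csf3r-/- 2, 1 of 6 macrophage genes was higher. With low cells matched in depth, 0 of 8 macrophage genes (median 0.062) and 0 of 3 class II genes (median 0.13) passed. The summed level of the macrophage genes was 21.5, 334, 336 and 4697 CPM in the high cells and 27.3, 114, 57.8 and 609 CPM in the low cells. Apoe was the most abundant in each, and the part of these genes in the other results was not tested beyond the counts below. Summed class II genes stood at 92.6, 382, 536 and 1816 CPM against 25.3, 123, 173 and 224 CPM. Cells with at least 3 UMIs of other cell types were 0.986%, 3.26%, 4.90% and 8.92% of the high cells and 1.39%, 1.33%, 1.71% and 4.12% of the low cells. Of the 12 largest rises 6 were H2-Eb1, H2-Aa, H2-Ab1 and Cd74 of antigen presentation, the chemokine Ccl8 and the matrix protein Spp1, with 2.19, 2.16, 2.11, 1.67, 2.78 and 1.45. Ccl8 was at 146 CPM in the high cells of Csf3r-/- 2 and below 5 CPM in the other libraries, and without Csf3r-/- 2 its log2 fold change was 0.84 and did not pass.

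With those cells left out, all 8 chaperones, all 20 immediate-early genes and 20 of the 21 dissociation genes called over all cells were still called in the same direction. The exception was Mt1, a metal-binding stress protein, which went from 1.85 (edgeR, adjusted p = 0.0171) to 0.56 (adjusted p = 0.442), and Fosl2 was then called lower at -0.34 (adjusted p = 0.0435). The counts were then 9 of the chaperones, 21 of the immediate-early genes, 22 of 26 dissociation genes and 18 of the type 1 genes higher, 13 of the type 3 genes lower and 0 of 5 macrophage genes higher. Ccl8, H2-Eb1, H2-Aa, H2-Ab1 and Cd74 went to -0.49, -0.23, -0.028, -0.28 and -0.61. Spp1, named with them above, was still called higher with those cells left out.

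The last question was whether heat-shock high cells differed between genotypes beyond their number. Of 9895 genes 57 passed (0.576%), 9 higher and 48 lower in Csf3r-/- cells, and 1230 had an unadjusted p under 0.05 by edgeR. The count was not stable: 0 passed when the cut was a sum of at least 3, 363 with DESeq2 and 679 with the number after the barcode as a replicate block. Scand1, a SCAN-domain protein, stood at 154 and 184 CPM in the Csf3r+/+ and at 10.5 and 7.34 CPM in the Csf3r-/- high cells, and Sdhaf1, an assembly factor of succinate dehydrogenase, at 72.6 and 98.6 against 10.1 and 9.34 CPM. The largest falls besides these were Gm4978 (log2 fold change -4.96), Rpl21-ps4 (-3.85) and Rpl9-ps1 (-3.39), all with 3′ words shared with other genes. The largest rises were Ccl7 (5.54), Stmn2 (4.72), Ccr1 (4.36), Slc15a3 (3.25) and Nrp1 (3.05). The chemokine Ccl7 stood at 0.393 and 1.18 CPM in Csf3r+/+ and at 35.2 and 58.4 CPM in Csf3r-/- high cells, and at 1.33, 0.904, 2.11 and 5.32 CPM in the low cells. Macrophage transcripts were more abundant in the high cells of Csf3r-/- 2 than elsewhere, at the levels given above, and their part in these calls was not tested. In the low cells all 57 genes also separated the genotypes in the same direction, so the direction was not particular to the heat-shock high cells. That check set 2 levels against 2 without a least size, and Ccl7 reached at most 5.32 CPM in low cells. For comparisons of genotypes, here and below, leaving out a library left 1 library in its genotype, and the other genotype alone gave the spread. Without Csf3r-/- 2 only 3 genes passed, 2 of them among the 57, while 100 passed without Csf3r-/- 1, 408 without Csf3r+/+ 1 and 102 without Csf3r+/+ 2.

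The difference between heat-shock high and low cells was not shown to depend on genotype. By edgeR's interaction test 0 of 10453 genes (0%) passed, 406 had an unadjusted p under 0.05, and DESeq2 called 1. The count depended on the libraries and the cut: 169 genes passed without Csf3r+/+ 1, 135 without Csf3r+/+ 2, 0 without either Csf3r-/- library and 4 with a sum of at least 10. With a library left out, the spread again came only from the genotype that kept 2 libraries. Counts were simulated with a dispersion of 0.05 for every gene, which was not estimated from these libraries. On them this interaction test recovered 0% of changes of 1 and 50% of changes of 2 on the log2 scale. Differences of these sizes can therefore have been missed with 2 libraries per genotype.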

How the data were processed

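The authors made the deposited values, raw UMI counts per gene and barcode, with Cell Ranger on mm10 (per the submitters' processing notes, which also name bcl2fastq, R 3.4.4 and Seurat 2.3.4) and pooled both libraries of a genotype in 1 matrix of 27998 genes. Here libraries were separated by the number after the barcode; 0 columns were left without a library. Members and lists were chosen with earlier results of these data known. No doublet caller was run; cells with UMIs of other cell types were left out as an alternative.

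Counts were summed per class and library and tested with edgeR 4.0.16 (R 4.3.3; TMM factors, filterByExpr, quasi-likelihood test, library as block; genotypes without block), adjusted by Benjamini-Hochberg at 0.05 over all genes tested. The 4 genes of the rule were left out of the tests of high against low cells, except when held out, and of the interaction test. They stayed in the counts of the comparison of genotypes within heat-shock high cells. Matching drew equal numbers of high and low cells per bin of 250 UMIs (seed 1), so it left out cells of both classes. P-values measure the spread between 4 libraries, which the study describes as 2 mice per genotype. Cells of 1 library are not replicates.

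Named genes were those of the lists, first by role, and the 12 largest changes each way past the threshold with a mean of at least 20 CPM and the same sign in 4 libraries; between genotypes, the 5 largest each way with the same sign under every left-out library. Some genes of the lists are not reported here. Gene places are from GENCODE vM21 (GRCm38). The alternatives tried were sums of at least 3 or 10, low cells of sum 0, thinning to 1500 UMIs, depth matching, either kind of T cell, an upper limit of genes, no Cd3e filter, each library left out, fits without a filter on low counts, and DESeq2 1.42.0. Tested on counts simulated with that threshold and a dispersion of 0.05 for every gene, edgeR was run between classes. It recovered 48.5% of 200 genes changed by 1 and 96% of those changed by 2 (log2). Python 3.11.15, NumPy 2.4.6, SciPy 1.17.1, pandas 2.3.3 and Matplotlib 3.10.9 were used. The study's other assays were not analysed here.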

Additional observations from a re-analysis of the deposited data

Results flagged for a closer look

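Mki67, a proliferation marker, moved in opposite directions in the genotypes: its log2 ratio of heat-shock high over low cells was -0.064 in Csf3r+/+ 1 and -0.34 in Csf3r+/+ 2, but 0.31 in Csf3r-/- 1 and 0.25 in Csf3r-/- 2. The interaction test across all genes gave an adjusted p of 1 in edgeR, so the difference was not shown.

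Barcodes with at least 3 macrophage UMIs and without Cd3e, which entered no comparison except the share of heat-shock high cells with no Cd3e filter, also carried the 4 heat-shock genes. Of them 57.9% (11 of 19), 60.9% (67 of 110), 34.5% (10 of 29) and 38.1% (56 of 147) had 5 or more UMIs, in the order Csf3r+/+ 1, Csf3r+/+ 2, Csf3r-/- 1 and Csf3r-/- 2, at median depths of 7702, 4205.5, 2644 and 4419 UMIs. Thinned to 1500 UMIs the shares were 17.6%, 26.6%, 0% and 15.4%.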

How the results depend on the processing

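The lower share of heat-shock high cells in Csf3r-/- libraries kept its direction under every alternative, at -21.7 percentage points after thinning to 1500 UMIs, -26.8 with a sum of at least 10, -23.2 in type 3-leaning cells and between -40.7 and -32.6 with a library left out; at 2 against 2 libraries it cannot pass a threshold. The counts of higher and lower genes moved with the setting: 209 and 154 with DESeq2, 713 and 475 with no filter on low counts, 127 and 96 with matched depth, 144 and 114 with cells chosen at 1500 UMIs, 155 and 75 in type 3-leaning cells, 125 and 106 in type 1-leaning cells, 108 and 127 with depth and kind matched, and 52 to 615 and 44 to 360 with a library left out. Fewer cells entered most of these fits, and the cause of each shift was not tested. Of the 59 named genes that passed, 55 also passed in the same direction with DESeq2, 48 with matched depth, 36 of 58 with depth and kind matched and 37 without Csf3r-/- 2. Matched in depth, the gaps in median UMIs and genes were 9.25 and -32, as the matching intends.

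Genes that differed between genotypes in heat-shock high cells numbered 363 with DESeq2, 1020 with no filter, 0 with a sum of at least 3 and 3 to 408 with a library left out. With the number after the barcode as a replicate block they numbered 679, against 57 without it. The correlation of same-numbered libraries was 0.315, which is equal in both pairs by construction, and the labels do not pair the animals. Genes whose change depended on genotype numbered 1 with DESeq2, 62 with no filter, 4 with a sum of at least 10 and 0 to 169 with a library left out.

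Some named genes changed sign. Without cells carrying UMIs of other cell types, Ccl8 was at -0.49, H2-Eb1 at -0.23, H2-Aa at -0.028, H2-Ab1 at -0.28 and Cd74 at -0.61. With matched depth Ccl8 was at -0.0099 and Cd74 at -0.15, and with cells chosen at 1500 UMIs Ccl8 was at -0.45, Spp1 at -0.39 and Mcm7, a replication helicase subunit, at -0.33 against 0.67. With depth and kind matched Spp1 was at -0.10 and Eomes at -0.12. In type 1-leaning cells Plekhg1 was at 0.22, Ppp1r14c at 0.40, Ifngr2 at 0.31, Actn2 at 0.39, Ccr1 at 0.26, Pxdc1 at 0.24, Ltb4r1 at 0.38 and Il17a at 0.64. Mki67, at 0.07, was at -0.082 with a sum of at least 10, -0.96 with matched depth, -1.86 at 1500 UMIs, -0.35 in type 3-leaning cells, -1.04 with depth and kind matched, -0.034 without Csf3r-/- 1 and -0.0048 without Csf3r-/- 2, within -0.034 to 0.211 over the left-out libraries. Depth limits the classes: at a median of 1983 to 3055 UMIs per cell, a sum of 5 against 1 does not separate all cells.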

Other observations

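The direction of the cell cycle genes changed with matching. Of 20 tested, 7 were higher and 0 lower in heat-shock high cells (median log2 fold change 0.42). With low cells matched in depth 0 were higher and 9 lower (median -0.55), and the counts were the same with depth and kind of T cell matched (median -0.43); the cause was not tested. Mki67 was at 0.07 over all cells and at -1.04 in matched cells by edgeR. Genes of the type I interferon response gave 3 higher and 0 lower of 18 over all cells and 0 of 18 in matched cells, and glycolysis genes 1 higher and 1 lower of 15 over all cells and 0 of 15 in matched cells. Of all genes tested, 3.13% were higher and 2.41% lower over all cells, and 1.17% and 1.38% in matched cells. Counts of 0 or 1 in such short lists therefore say little about their members.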
